A study of Mus musculus with 16 samples.

Results

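The genes described here are 10 immediate early and AP-1 genes, namely Fos, Fosb, Fosl2, Jun, Junb, Jund, Egr1, Atf3, Ier2 and Zfp36. They were picked by name and matched by Ensembl identifier, as 10 of the 49315 genes of the count files, and all 10 had counts in each of the 24 files. Bulk RNA was sequenced from neutrophils, gated on Ly6G+/CD11b+/CD45.2+, out of blood and lung of WT mice and of mice labelled αD KO, a line with a knockout of Itgad (integrin αD, CD11d) that came, like the WT mice, from the Jackson Laboratory. Animals were naive (0h) or were taken 12 hours after cecal ligation and puncture (CLP), a surgical model of polymicrobial sepsis performed per the labels in male mice of 8 to 12 weeks. The 8 groups are therefore WT blood 0h, WT blood 12h, WT lung 0h, WT lung 12h and the corresponding 4 groups labelled αD KO, with 2 samples and 3 count files in each. Sample 1 has a pair of files, named libraries 1a and 1b here, and sample 2 has library 2, so n = 3 libraries per group, from 2 samples. Whether 1a and 1b stand for separate animals is not in the labels, and the p-values measure the spread between libraries, which may be technical in part. The question asked of these genes was how their levels in lung neutrophils compared with those in blood neutrophils, at both times and in both genotypes.

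AP-1 is a dimeric transcription factor built from proteins of the FOS, JUN and ATF families, and its subunits are encoded by immediate early genes, which are transcribed within minutes of a stimulus from factors already present in the cell. Growth factors, bacterial products, adhesion, mechanical stress and heat all induce them, through MAP kinases acting on serum response factor, CREB and JUN itself. Their transcripts are short-lived, and warm or enzymatic preparation of a solid tissue is widely known to induce them in the isolated cells. Blood needs no such preparation. In this study tissue and preparation went together, so that the place where a neutrophil was and the way it was isolated cannot be told apart. The lung digestion protocol was not given in the sources used here.

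Total counts per library were 5753476 to 29984954 with a median of 18741144. The 8 libraries 1b had counts for 29162 to 38844 genes and the other 16 libraries for 17132 to 32666. Itgad was higher in the libraries labelled αD KO, at 12.5 to 102 CPM (each library's counts put on the same total by TMM factors) in 12 libraries against 0.0583 to 3.67 CPM in the 12 WT libraries. The counts are per gene and not per exon, so they do not tell a transcript of a disrupted allele from an intact one, and genotypes are given below as labelled. The lung libraries were also placed on an axis of the 1339 genes called between WT lung 12h and WT lung 0h, without the 10 genes, where the mean of WT lung 0h is 0 and that of WT lung 12h is 1, each WT library being placed against means taken without it. The WT lung libraries lay at -0.04 to 0.108 at 0h and at 0.661 to 1.21 at 12h. The 1339 genes were themselves called from all the WT lung libraries, so these places are no independent check of the axis. Library 2 labelled αD KO lung 0h lay at 1.03 and, among those labelled αD KO lung 12h, library 1a at 0.0994 and library 2 at 0.188, which goes against their time labels. The other 3 lung libraries labelled αD KO lay at 0.0973, 0.152 and 0.826. The edgeR tests of the members that hold these 3 libraries, the permutation tests with libraries as the unit and the counts over gene and marker lists are given below with and without them. Because the 3 libraries were recognised by genes that differ between 12h and 0h, values over time without them are a description and not a test, and 12h in lung labelled αD KO is then 1 library. Only lung libraries were placed on the axis, so no blood library could be left out in this way. Tests of lung against blood without the 3, exact permutation p-values included, are therefore descriptions too.

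Positions are given on GRCm38, and the positions of the 10 genes in the files equal those of that annotation. FOS family members are Fos (chromosome 12, 85473890 to 85477273, plus strand), Fosb (chromosome 7, 19302696 to 19310051, minus strand) and Fosl2 (chromosome 5, 32135801 to 32157842, plus strand). JUN family members are Jun (chromosome 4, 95049034 to 95052222, minus strand), Junb (chromosome 8, 84974484 to 84978718, minus strand) and Jund (chromosome 8, 70698949 to 70700616, plus strand). Atf3 (chromosome 1, 191170296 to 191218039, minus strand) encodes a stress-induced partner of JUN proteins. Egr1 (plus strand) encodes a zinc finger transcription factor, Ier2 (chromosome 8, 84661331 to 84662852, minus strand) a nuclear protein induced by serum, and Zfp36 (chromosome 7, 28376784 to 28380253, minus strand) tristetraprolin, which binds AU-rich elements and promotes decay of cytokine transcripts. Exons of Jun, Junb, Jund and Zfp36 overlap a gene on the opposite strand (Junos, Prdx2, Gm11175 and Gm44710), and whether counting used strand is not given in the sources used here, so reads of these pairs cannot be told apart.

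Promoters are shown for Fos, Fosb, Junb and Atf3, chosen after their values were seen as the 4 genes called lower in WT blood at 12h, since they shared a short motif. The RefSeq table of GRCm38.p6 held the promoter of 8 of the 10 genes, without Egr1 and Ier2. The motif is TGACG, the core of the cyclic AMP response element (CRE) that CREB and ATF proteins bind, searched on both strands in the 250 bases before the transcription start. For Atf3 the start in that table lies inside the gene as placed above (191170296 to 191218039), not at its outer end. The bases searched are printed here 5′ to 3′ on the strand of the gene, with the motif in capitals (CGTCA where it lies on the other strand).
Fos, chr12:85473640-85473889, plus strand: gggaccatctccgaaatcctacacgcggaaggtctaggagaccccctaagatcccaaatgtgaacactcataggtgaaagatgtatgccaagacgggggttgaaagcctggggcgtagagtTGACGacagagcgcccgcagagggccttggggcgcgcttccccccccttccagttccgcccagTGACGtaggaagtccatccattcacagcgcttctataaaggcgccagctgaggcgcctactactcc
Fosb, chr7:19310046-19310295, minus strand: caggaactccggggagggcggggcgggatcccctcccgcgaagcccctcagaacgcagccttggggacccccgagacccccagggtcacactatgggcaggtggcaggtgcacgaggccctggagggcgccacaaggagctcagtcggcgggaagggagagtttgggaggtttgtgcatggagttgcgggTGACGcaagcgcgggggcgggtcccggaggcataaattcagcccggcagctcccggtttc
Junb, chr8:84978749-84978998, minus strand: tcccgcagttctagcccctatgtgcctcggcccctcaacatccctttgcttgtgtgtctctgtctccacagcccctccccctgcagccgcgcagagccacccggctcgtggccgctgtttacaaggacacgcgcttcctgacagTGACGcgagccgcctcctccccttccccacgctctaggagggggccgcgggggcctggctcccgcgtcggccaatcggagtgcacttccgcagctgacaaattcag
Atf3, chr1:191183334-191183583, minus strand: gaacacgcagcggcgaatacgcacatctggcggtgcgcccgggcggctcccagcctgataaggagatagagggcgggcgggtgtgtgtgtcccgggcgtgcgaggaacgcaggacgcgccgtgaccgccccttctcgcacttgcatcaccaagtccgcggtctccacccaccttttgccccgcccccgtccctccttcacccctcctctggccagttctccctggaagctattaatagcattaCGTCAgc
The motif was in 4 of the 8 promoters and in 17.8% of the 32851 promoters of the table. In Fos it occurred at 129 and 66 bases before the start, in Fosb at 60, in Junb at 106 and in Atf3 at 7. The full CRE, TGACGTCA, was in none of the 8 and in 1.55% of all promoters, and the AP-1 site TGANTCA was in none of the 8 and in 6.75%. The Egr site GCGNGGGCG was in the promoters of Fosl2, Fosb and Zfp36 (4.7% of all), where in Fosl2 and Fosb it overlapped a GC box. The GC box GGGCGG was in 6 of the 8 (32.7% of all), TATAAA was in Fos alone (12.4%), and the CArG box of serum response factor was in Zfp36 alone (1.47%). A match describes these letters in this window, not a bound site.

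In WT mice, Fos, Junb, Zfp36 and Ier2 were among the most abundant transcripts of naive neutrophils, and the 10 genes together held a smaller share of all counts in blood 12 hours after CLP. Per kilobase of exon, Fos was at 1625 ± 775 CPM (SD, n = 3) in WT blood 0h, rank 22 of all genes, and Junb was at 1682 ± 784 CPM, rank 21. Zfp36 was at 618 ± 230 (rank 64) and Ier2 at 584 ± 263 CPM per kilobase (rank 73), whereas Fosb was at 4.22 ± 2.33. The order of Fos and Junb, and that of Zfp36 and Ier2, did not differ beyond the spread between libraries. The 10 genes together held 1.13% to 1.51% of all counts in WT blood 0h and 0.235% to 0.357% in WT blood 12h. In WT lung they held 1.25% to 1.94% at 0h and 0.512% to 1.28% at 12h. In blood labelled αD KO the share was 0.805% to 1.52% at 0h and 0.281% to 0.47% at 12h, and in lung with that label it was 0.864% to 1.45% at 0h and 0.947% to 2.06% at 12h. In both genotypes the shares in blood at the 2 times did not overlap, and at 12h those of lung and blood did not overlap.

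**Figure D1:**
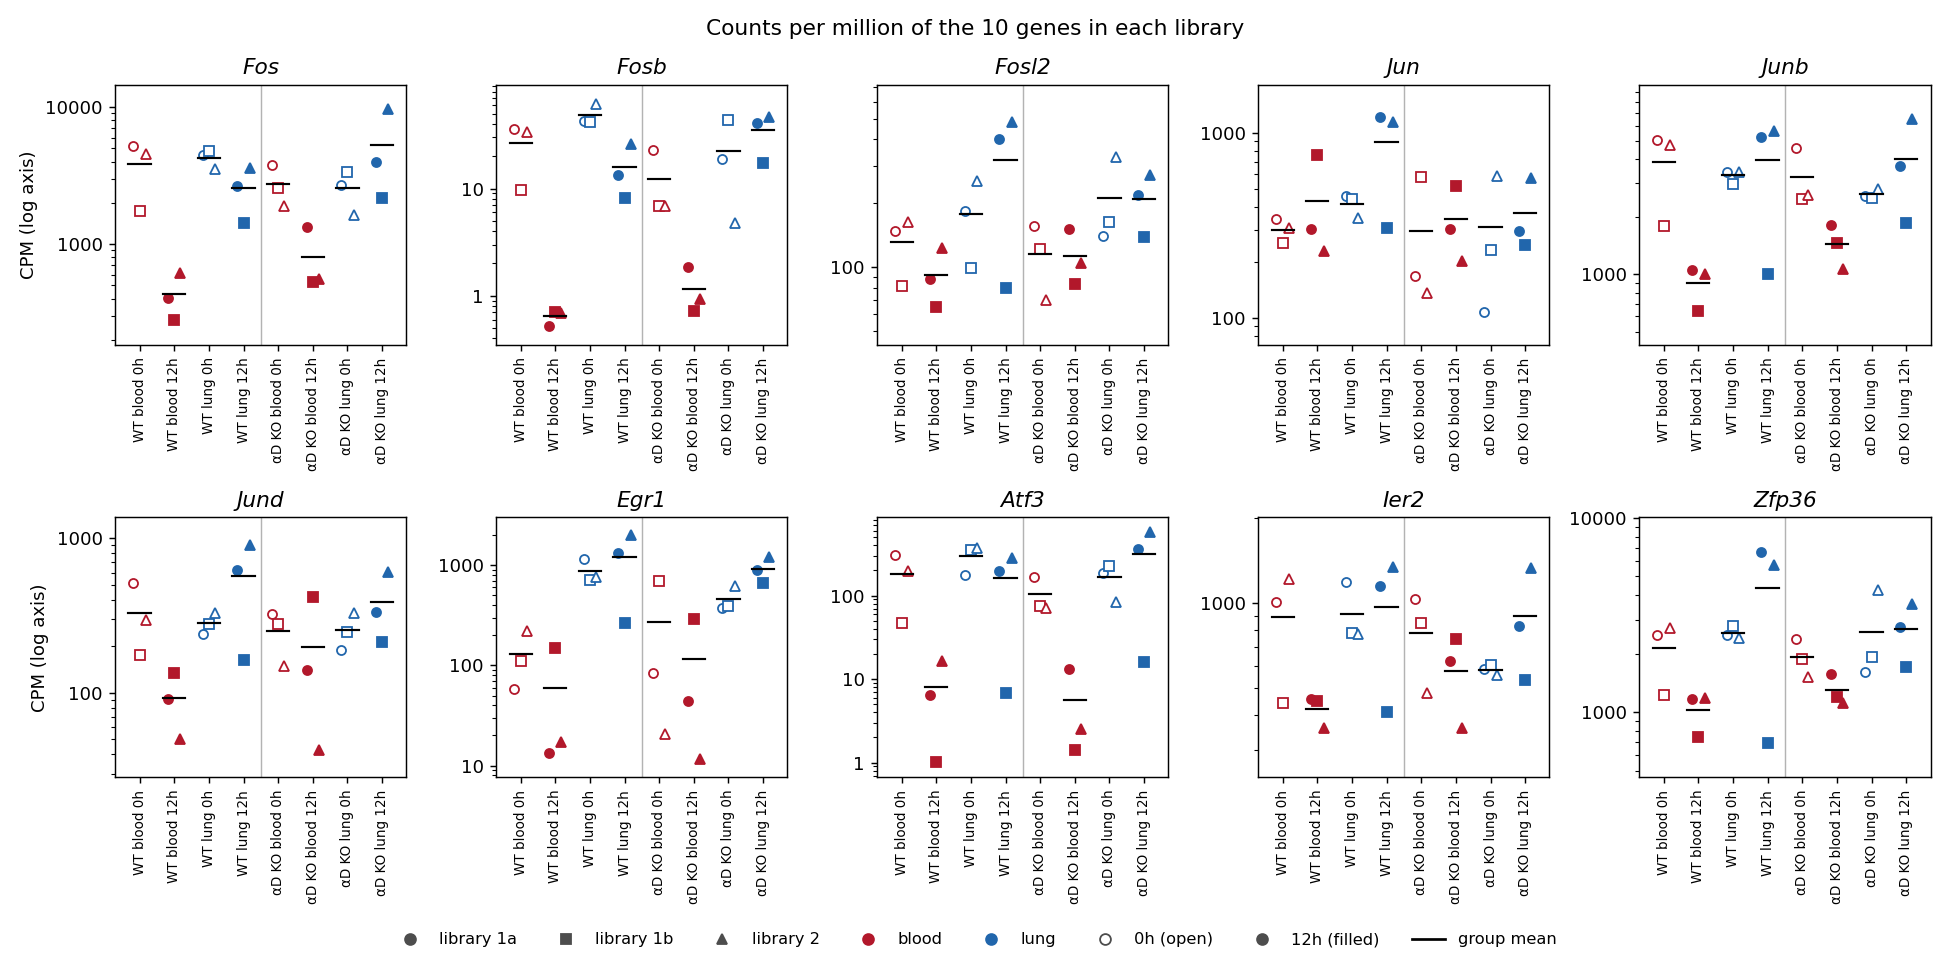
CPM of each gene (log axis) in the 24 libraries, grouped by genotype as labelled, tissue and time, with 1 point per library. Fos in blood 12h lies at 277 to 611 CPM in WT, below the 1423 to 3604 CPM of WT lung 12h.

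Fos and Fosb, which encode FOS subunits of AP-1, showed the clearest separation of lung from blood after CLP. Fos was at 403, 277 and 611 CPM in WT blood 12h (libraries 1a, 1b and 2) and at 2676, 1423 and 3604 CPM in WT lung 12h. With the αD KO label it was at 1331, 526 and 556 CPM in blood 12h and at 3992, 2173 and 9681 CPM in lung 12h. Every lung library at 12h was thus above every blood library, in both genotypes. Fosb was at 0.525, 0.703 and 0.696 CPM in WT blood 12h, which rests on 9, 14 and 10 counts, and at 13.3, 8.18 and 26 CPM in WT lung 12h. With the αD KO label Fosb was at 1.86, 0.717 and 0.929 CPM in blood 12h and at 41.1, 17.4 and 46.3 CPM in lung 12h. Fos and Fosb were the 2 members whose 6 lung libraries at 12h were all above all 6 blood libraries, an order that 1.48% of the 27145 genes tested showed, and at 0h no member had it (0.313% of genes). The same 2 members had this order at 12h without the libraries out of place (1.97% of genes).

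Egr1, a zinc finger factor induced through serum response factor, was the member whose lung and blood libraries lay furthest apart in naive WT mice. It was at 58, 110.1 and 219 CPM in WT blood 0h and at 1149, 705 and 764 CPM in WT lung 0h, without overlap. At 12h it was at 13.2, 149 and 17.3 CPM in WT blood and at 1325, 262 and 1996 CPM in WT lung. In blood labelled αD KO it was at 84.5, 700.0 and 20.7 CPM at 0h and at 44.3, 289 and 11.5 CPM at 12h, so that library 1b stood far above the other blood libraries at both times. In lung with that label Egr1 was at 377, 396 and 614 CPM at 0h and at 893, 660.1 and 1209 CPM at 12h.

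Atf3 and Junb had Fos as the member most like them over the 24 libraries. Atf3 was at 303, 47.3 and 198 CPM in WT blood 0h and at 6.53, 1 and 16.3 CPM in WT blood 12h. In WT lung it was at 175, 349 and 373 CPM at 0h and at 197, 6.74 and 284 CPM at 12h. Library 1b of WT lung 12h lay within the range of blood, and the other 2 lung libraries lay above it. Junb, a JUN subunit with weaker transactivation than Jun, was at 1049.6, 641 and 1002 CPM in WT blood 12h and at 5209, 1006 and 5627 CPM in WT lung 12h. Zfp36 was at 1165, 747 and 1181 CPM in WT blood 12h and at 6704, 695 and 5751 CPM in WT lung 12h. Library 1b of WT lung 12h had the lowest level of its group for 10 of 10 members, as had library 1b labelled αD KO lung 12h, and library 2 labelled αD KO lung 12h had the highest for 10 of 10.

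Jun, the founding JUN subunit, was called in no comparison with all libraries. Its levels were 342, 253 and 307 CPM in WT blood 0h and 301, 760.1 and 230 CPM in WT blood 12h, with 456, 441 and 348 CPM in WT lung 0h and 1214, 307 and 1150 CPM in WT lung 12h. Jund, the JUN subunit that many cells express without a stimulus, was at 515, 175 and 294 CPM in WT blood 0h, 91.2, 135 and 50.3 CPM in WT blood 12h, 239, 279 and 327 CPM in WT lung 0h and 627, 164 and 908 CPM in WT lung 12h. Jund in WT lung 12h was above all WT blood 12h libraries, while Jun overlapped between these groups. Fosl2 spanned 64.9 to 479 CPM and Ier2 361 to 1345 CPM over the 24 libraries.

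Over all 24 libraries, with genotype and time in the model, 2 of the 10 genes were called higher in lung than in blood and none lower. Called means past a log2 fold change of 1 in either direction with an adjusted p under 0.05, by edgeR's quasi-likelihood F test with Benjamini-Hochberg adjustment over all genes tested. Fosb was higher by a log2 fold change of 2.70 ± 0.59 (SE, adjusted p = 0.0223) and Egr1 by 2.74 ± 0.64 (adjusted p = 0.0354). Of the 27145 genes tested, 0.81% were called higher in lung. The fold changes of all 10 were positive, from 0.36 (Ier2) to 2.81 (Atf3), with a median of 0.97 where the median of all genes was 0.18. Atf3 at 2.81 ± 0.86 (adjusted p = 0.14), Fos at 1.34 ± 0.42 (adjusted p = 0.155) and Fosl2 at 1.00 ± 0.28 (adjusted p = 0.0854) did not pass. A fit with each same-numbered lung and blood pair of a genotype and time as a block was also run, a pairing the labels do not state. Fosb and Egr1 were then called together with Atf3 (2.62, adjusted p = 0.0309), and 1.48% of all genes were called higher in lung. With the files of sample 1 summed, which leaves the 2 deposited samples per group, Egr1 alone was called (3.02 ± 0.69, adjusted p = 0.0499; 0.701% of all genes), while Fosb had an adjusted p of 0.105 and Atf3 of 0.155. The calls also differed between the libraries. Libraries 1a and 2 alone called Egr1 (4.50 ± 0.62, adjusted p = 0.00248) and Fosl2 (1.16 ± 0.26, adjusted p = 0.0278) but not Fosb (adjusted p = 0.126), with 1.94% of all genes called higher in lung. Libraries 1b alone, 4 against 4, called Fosb (3.03 ± 0.46, adjusted p = 0.00447) and Atf3 (2.56 ± 0.40, adjusted p = 0.00671), with 0.285% of all genes, and there Egr1 was at 0.85 ± 0.51 (adjusted p = 1). The calls were near the threshold, and leaving out 1 library at a time lost the call of Fosb in 8 of 24 cases (adjusted p up to 0.0597) and that of Egr1 in 13 of 24 (adjusted p up to 0.0685). No member was called without any 1 of the 3 libraries of WT blood 12h or without library 1a or 2 labelled αD KO blood 12h, when 0.47% to 0.539% of all genes were, and 3 were called without library 1b of WT lung 12h (0.87% of all genes). Without the 3 libraries out of place Fosb alone was called (2.61 ± 0.51, adjusted p = 0.0257), with 0.277% of all genes called higher in lung, and Egr1 was at 2.77 ± 0.75 (adjusted p = 0.169).

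A two-sided exact permutation test of the mean lung minus blood difference in log2 CPM, which exchanged libraries only within the 4 combinations of genotype and time (160000 arrangements), gave unadjusted p under 0.05 for 7 of the 10 genes tested. The edgeR test of the same comparison had an unadjusted p under 0.05 for 2772 of all 27145 genes (10.2%), and the permutation test was run for the 10 genes alone. The permutations did not keep same-numbered lung and blood libraries together, though such libraries deviated together in most comparisons. The exact permutation p was 7.5e-05 for Egr1 (difference 3.46), 0.0005 for Fosb (2.72), 0.0031 for Fos (1.33), 0.00311 for Atf3 (2.73), 0.00539 for Fosl2 (0.90), 0.0183 for Zfp36 (0.81) and 0.0366 for Jund (0.94). It was 0.0534 for Junb, 0.172 for Ier2 and 0.221 for Jun. With libraries 1a and 1b averaged, so that 2 samples met 2 in each combination (an alternative chosen after seeing the data), the same exact test gave p = 0.00154 for Egr1, the smallest that its 1296 arrangements allow. Fosb then had an exact p of 0.0108, Fos of 0.0278, Atf3 and Fosl2 of 0.00463, Zfp36 of 0.00926 and Jund of 0.0309. Without the 3 libraries out of place (16000 arrangements, also added after seeing the data) the exact p was 0.000313 for Fosb (difference 2.72), 0.00106 for Egr1 (3.30), 0.00444 for Fos (1.15), 0.00869 for Atf3 (2.04) and 0.0359 for Fosl2 (0.68). Zfp36 (exact p = 0.111) and Jund (exact p = 0.194) then did not pass. Those p-values without the 3 libraries are a description and not an exact test, since no blood library could be left out. With all libraries the mean CPM was higher in lung in 4 of 4 combinations for Fosb, Fosl2, Jun, Egr1, Atf3 and Zfp36, in 3 for Fos, Jund and Ier2, and in 2 for Junb. For Jun with the αD KO label at 0h this rested on lung library 2, out of place, at 589 CPM beside 108 and 233 CPM. The edgeR log2 fold change of Jun there was -0.04.

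**Figure D2:**
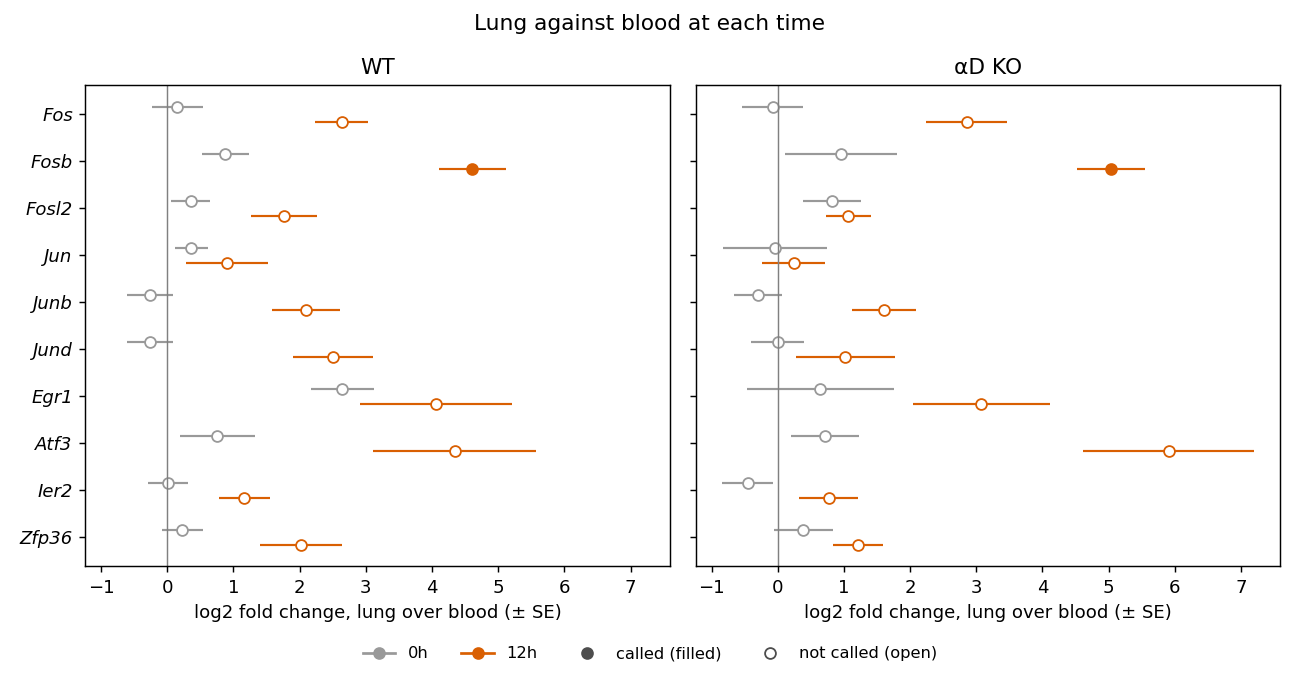
Log2 fold change of lung over blood for each gene, with SE bars, at 0h and 12h in WT (left) and in libraries labelled αD KO (right), filled where called. At 12h all 10 genes lie to the right of 0 in both panels, and Fosb is the filled point at 4.61 in WT and 5.04 with the αD KO label.

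In WT at 12h all 10 genes had positive lung over blood log2 fold changes, from 0.90 (Jun) to 4.61 (Fosb), with a median of 2.30, where the median of all genes was 0.03. Fosb alone was called (4.61 ± 0.51, adjusted p = 0.0484), with 0.0442% of the genes tested called higher in lung. Fos was at 2.63 ± 0.41 (adjusted p = 0.0726), Egr1 at 4.06 ± 1.15 (adjusted p = 0.16) and Atf3 at 4.34 ± 1.23 (adjusted p = 0.16), and 9 of the 10 had an unadjusted p under 0.05, as had 2454 of the 13590 genes tested (18.1%). For Fos, Fosb, Jund and Egr1 all lung libraries were above all blood libraries, an order seen in 6.1% of genes. With the replicate number as a block, Fos (2.64, adjusted p = 0.0358) and Atf3 (4.08, adjusted p = 0.0256) were called as well as Fosb, with 0.471% of all genes called higher in lung. With the files of sample 1 summed Atf3 was not called (4.29 ± 0.84, adjusted p = 0.0528), and Fos, Fosb, Junb and Zfp36 were, with 2.8% of all genes. The result turned on library 1b of WT lung 12h. Without it 9 members were called, with 10.6% of all genes called higher in lung, and with libraries 1a and 2 alone 10 were called, with Jun at 2.13 and Egr1 at 6.75 (adjusted p = 0.00181 and 0.000277), but 15.6% of all genes were then called higher in lung. Leaving out any other library of this comparison lost the call of Fosb, with an adjusted p of up to 0.544.

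In libraries labelled αD KO at 12h the 10 fold changes were again all positive, from 0.24 (Jun) to 5.91 (Atf3). Fosb was called (5.04 ± 0.51, adjusted p = 0.0299), against 0.0548% of all genes called higher in lung, while Atf3 at 5.91 ± 1.29 and Fos at 2.85 ± 0.62 had an adjusted p of 0.092. Fos, Fosb, Junb, Egr1, Atf3 and Zfp36 did not overlap between the tissues, as was the case for 10.3% of genes. With libraries 1a and 2 alone 9 members were called, all but Jun, when 20.4% of all genes were called higher in lung. No member was called without library 1a or 2 of either tissue, when 0% of all genes were, 2 were called without library 1b of blood (1.42% of all genes) and 5 without library 1b of lung (6.36%). Without the 2 lung libraries out of place, library 1b remained as the lone lung library, whose spread was taken from the blood libraries, and no gene was called (0% of all). Fosb was then at 4.01 ± 0.71 and Atf3 at 1.66 ± 1.04 (adjusted p = 0.43 and 0.467), and Jun (-0.35) and Ier2 (-0.00372) were below 0.

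At 0h none of the 10 genes was called between lung and blood in either genotype, and 0% of all genes were. The edgeR test had 406 genes at an unadjusted p under 0.05 in WT and 553 with the αD KO label. Without library 2 labelled αD KO lung 0h, the one out of place, the 10 fold changes with that label ran from -0.70 (Jun) to 1.45 (Fosb), and again none was called (0% of all genes, 343 at an unadjusted p under 0.05). Egr1 in WT had the largest difference, 2.65 ± 0.48, with an unadjusted p of 0.000996 and an adjusted p of 0.999. The Wald test of DESeq2 called Egr1 there (2.67 ± 0.45, adjusted p = 8.28e-06), with 0.187% of all genes called higher in lung. Fosb, Jun and Egr1 did not overlap between WT lung and WT blood at 0h, an order of 3.53% of genes, and with the αD KO label no member had it (3.11% of genes). In exact permutation tests within each time (400 arrangements each, added after seeing the data), Egr1 at 0h had p = 0.02 and the other 9 genes had p between 0.1 and 0.965, with all libraries. Without the library out of place (200 arrangements) the exact p at 0h was 0.035 for Egr1 and 0.055 to 0.95 for the others. At 12h the exact permutation p of Fos, Fosb and Egr1 was 0.005, the smallest these arrangements allow, that of Junb and Atf3 was 0.015, that of Jund 0.03, that of Fosl2 0.04, that of Zfp36 0.05, that of Ier2 0.07 and that of Jun 0.26. Without the 2 libraries out of place (80 arrangements) the exact p at 12h was 0.0125 for Fos and Fosb, the smallest then allowed, and 0.025 for Egr1, while the other 7 genes had p between 0.0625 and 0.537.

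Transcripts of lung cells also differed between the tissues. The summed level of 11 markers of lung endothelium and stroma was 7.97 to 57.3 CPM in blood and 48.2 to 579 CPM in lung, and 8 of the 11, Cldn5 and Cdh5 of endothelium among them, were called higher in lung over the 24 libraries (5 without the libraries out of place). The 10 markers of lung epithelium summed to 3.15 to 304 CPM in blood and 26.2 to 824 CPM in lung, and 1 of them (Scgb1a1, a club cell secretory protein) was called, also without those libraries. The 304 CPM was in library 2 of WT blood 0h, and the next highest blood library, 1b of that group, was at 16.7 CPM. The 12 neutrophil markers, S100a8, S100a9 and Ly6g among them, summed to 29839 to 269596 CPM in blood and 38445 to 161290 CPM in lung, and none was called. In WT at 12h the endothelial and stromal markers had a median log2 fold change of 3.53 in lung over blood, with Epas1 called, and the 7 epithelial markers tested a median of 2.71 with none called. With the αD KO label at 12h these medians were 4.76, with Ramp2 called, and 5.64, with Sftpa1 and Scgb1a1 called. Neutrophil, monocyte and macrophage, and B cell markers had medians of -0.38, 0.30 and -1.62 in WT at 12h and of -0.84, 1.67 and 1.45 with the αD KO label, with none called. Libraries 1a and 2 labelled αD KO lung 12h, in those last values, are out of place on the axis. With library 1b as the lone lung library of that label, the medians were 4.42 for endothelial and stromal, 4.48 for epithelial, -0.42 for neutrophil, 1.01 for monocyte and macrophage and -0.94 for B cell markers, and none was called. Markers of T and NK cells, platelets and erythroid cells had no call between the tissues in these fits or over the 24 libraries, with or without the libraries out of place. The part of RNA from other cells in the levels of the 10 genes was not tested. In bulk RNA a change in the share of responding cells and a change per cell cannot be told apart.

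Fos, Fosb and Atf3 were lower in blood 12 hours after CLP in both genotypes, and markers of several cell types differed between the times in the same libraries. Summed neutrophil markers were at 29839 to 50904 CPM in WT blood 0h and at 142495 to 269596 CPM in WT blood 12h, where 7 of 12 were called higher and 1 lower (Csf3r, the G-CSF receptor, with means of 8885 and 1694 CPM). Of all 14625 genes tested there 1134 were called higher at 12h. Of 13 monocyte and macrophage markers 2 were called higher and 3 lower, and 1 lung epithelial marker (Sftpc) was called lower. Library 2 of WT blood 0h, in that test, held 304 CPM of lung epithelial markers, beside 8.35 and 16.7 CPM in libraries 1a and 1b. B cell markers were at 268 to 1214 CPM and 42.1 to 245 CPM, with 1 of 8 called lower, and platelet markers at 42.1 to 140.4 CPM and 5.78 to 31.7 CPM, with 3 of 6 called lower. In blood labelled αD KO neutrophil markers were at 36099 to 71058 CPM at 0h and at 166986 to 177366 CPM at 12h, with 5 of 12 called higher and Csf3r lower (means of 7270 and 1667 CPM). Of all 14156 genes tested with that label 531 were called higher at 12h. There 6 of 14 monocyte and macrophage markers, 3 of 8 B cell, 2 of 8 T and NK cell and 1 of 6 platelet markers (Gp1bb) were called lower. Their part in the change of the 10 genes was not tested. In WT blood 4 of the 10 genes were called lower at 12h and none higher. Fos fell by 3.34 ± 0.50 on the log2 scale (adjusted p = 0.00738) and Fosb fell by 5.47 ± 0.55 (adjusted p = 0.0021). Junb fell by 2.29 ± 0.45 (adjusted p = 0.0178) and Atf3 fell by 4.76 ± 0.98 (adjusted p = 0.0204). Of all genes 5.75% were called lower at 12h. For Fos, Fosb, Junb, Jund, Atf3 and Zfp36 all 0h libraries were above all 12h libraries, as for 12.7% of genes. With the replicate number as a block Jund (-2.04, adjusted p = 0.0278) and Zfp36 (-1.21, adjusted p = 0.0418) were called lower as well, with 8.22% of all genes. Jun was the member with a positive value in WT blood (0.42 ± 0.55, adjusted p = 0.645). With libraries 1a and 2 alone 8 members were called lower, Egr1 (-3.39, adjusted p = 0.01) and Ier2 (-1.67, adjusted p = 0.00728) among them, and 12.1% of all genes. The 4 calls were each lost in 3 or 4 of the 6 fits that left out 1 library, with no call left without library 2 of WT blood 0h or library 1a or 2 of WT blood 12h, when at most 0.072% of all genes were called lower. There was 1 call without library 1a of WT blood 0h (0.297% of all genes), and there were 7 without library 1b of WT blood 0h (9.07%) and 6 without library 1b of WT blood 12h (4.51%).

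In blood labelled αD KO, Fos was at 3768, 2568 and 1891 CPM at 0h and at 1331, 526 and 556 CPM at 12h, and its log2 level fell by 2.02 ± 0.45 (adjusted p = 0.0339). Fosb fell by 3.57 ± 0.65 (adjusted p = 0.0181) and Atf3 fell by 4.44 ± 0.81 (adjusted p = 0.018), so that 3 of the 10 genes were called lower, with 4.99% of all genes. All 10 fold changes were negative, and 4 members did not overlap between the times (14.5% of genes). With the replicate number as a block Junb (-1.35, adjusted p = 0.0333) and Egr1 (-1.25, adjusted p = 0.0325) were called too, with 6.08% of all genes called lower. With the files of sample 1 summed Atf3 alone was called (-4.31 ± 0.71, adjusted p = 0.0398; 1.74% of all genes), Fosb having an adjusted p of 0.0589 and Fos of 0.0879. With all 8 groups in 1 fit no member was called (0.192% of all genes). None of the 10 was called without library 1a labelled αD KO blood 0h or library 2 labelled αD KO blood 12h (0.315% and 0.565% of all genes called lower), and 2 were called without each of the other 4 libraries (0.871% to 4.32%).

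**Figure D3:**
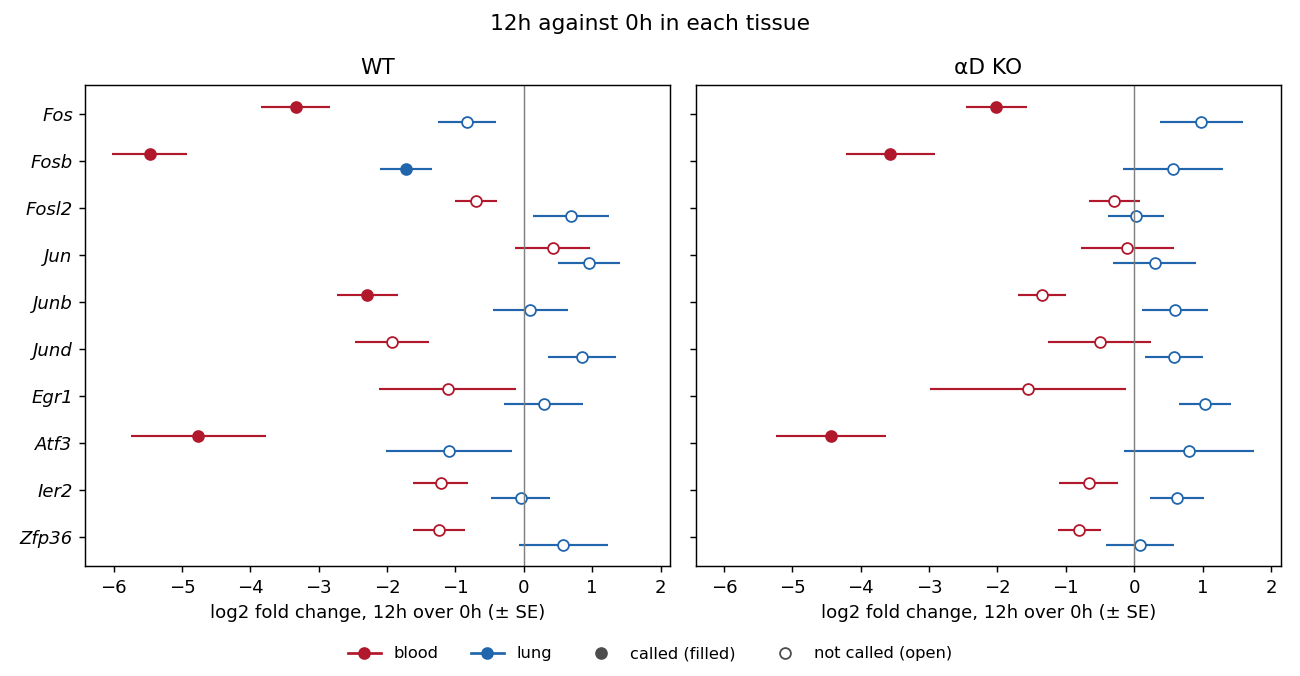
Log2 fold change of 12h over 0h for each gene, with SE bars, in blood and lung of WT (left) and of mice labelled αD KO (right), filled where called. Fos, Fosb and Atf3 lie far to the left of 0 in blood of both panels, and Fosb at -1.72 in WT lung is the filled lung point.

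In WT lung Fosb, at 43, 41.8 and 61.7 CPM at 0h and 13.3, 8.18 and 26 CPM at 12h, was the member that passed the test between the times (-1.72 ± 0.39, adjusted p = 0.0324), with 3.78% of all genes called lower and 16.3% of genes lower in every 12h library. Fos was at -0.83 ± 0.43 (adjusted p = 0.258), Junb at 0.10 ± 0.55 (adjusted p = 0.937) and Zfp36 at 0.58 ± 0.65 (adjusted p = 0.629). In the same test 5 of 12 neutrophil markers were called higher and 1 lower at 12h (Csf3r, with means of 9709 and 2959 CPM), 1 of 12 monocyte and macrophage markers was called higher and 3 lower, and 5 of 8 B cell markers were called lower. Of all 14859 genes tested 778 were called higher at 12h. Leaving out 1 library lost the call of Fosb in 5 of 6 cases, when 0% to 5.03% of all genes were called in either direction, and without library 1b of WT lung 12h, the remaining case, 3 members were called, with 25.3% of all genes called in either direction. With libraries 1a and 2 alone Fosb was called lower and Jun (1.32), Jund (1.2) and Zfp36 (1.1) were called higher at 12h, with 37.2% of all genes called in either direction. No member was called with the files of sample 1 summed (12.3% of all genes) or with all 8 groups in 1 fit (1.65%). In lung labelled αD KO no member was called, nor was any gene (0% of all, 72 genes at an unadjusted p under 0.05), and all 10 fold changes were positive, from 0.03 to 1.03. The directions turned on the libraries out of place. Atf3 was at 0.80 ± 0.95 with all libraries and at -3.59 ± 0.86 without the 3, while the other 9 genes then ran from -0.74 (Fosb) to 0.85 (Egr1), 5 of them below 0, a description for the reason given above.

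The difference between the tissues in their change over time was tested as an interaction. In WT it was positive for all 10 genes, meaning a smaller fall or a larger rise in lung, from 0.56 (Jun) to 3.69 (Fosb) with a median of 2.03. Of all genes 64.4% were positive, with a median of 0.56. None passed with edgeR (0% of all genes). Unadjusted p was 0.000167 for Fosb (3.69 ± 0.68), 0.00466 for Jund (2.79 ± 0.80) and 0.00525 for Fos (2.39 ± 0.70), beside 1290 genes at an unadjusted p under 0.05. With the same-numbered lung and blood pairs as a block Fosb was called (3.43 ± 0.56, adjusted p = 0.0198), with 0.034% of all genes. With the files of sample 1 summed Fosb was not called (3.98 ± 0.80, adjusted p = 0.362, with 0% of all genes). DESeq2 called Fos, Fosb, Junb and Jund (adjusted p from 6.85e-05 to 0.044), with 0.443% of all genes, and with libraries 1a and 2 alone all 10 were called, with 4.29% of all genes. With the αD KO label the interaction was positive for all 10 genes too, up to 5.16 ± 1.43 for Atf3 and 4.06 ± 1.06 for Fosb (adjusted p = 0.403 for both), with a median of 1.42, where 60.8% of all genes were positive with a median of 0.44, and none was called (0% of all genes). DESeq2 called Fos, Fosb and Atf3 there, with 1.37% of all genes. Those values rest on the libraries out of place. Without them Atf3 was at 0.55 ± 1.17, Fosb at 2.59 ± 1.03 and Fosl2 at -0.09 ± 0.72, with an adjusted p of 1 for each and no gene called (0% of all genes).

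Between the genotypes as labelled, no member was called in any of the 4 comparisons. In blood at 0h the fold changes of αD KO over WT were -1.08 (Fosb) to 1.2 (Egr1), and 0.0115% of all genes were called. In lung at 0h they were -1.03 (Fosb) to 0.21 (Fosl2), with Egr1 at -0.93 ± 0.31 (unadjusted p = 0.0199, adjusted p = 0.983) and all 3 labelled αD KO libraries of Fos, Junb, Egr1 and Ier2 below the WT libraries, an order seen in 4.73% of genes. Without library 2 labelled αD KO, out of place on the axis, Jun and Zfp36 had this order too (9.14% of genes, 2 libraries against 3), and Jun was at -1.25 ± 0.43 and Egr1 at -1.13 ± 0.40 (adjusted p = 0.963 for both). In blood at 12h they were -0.45 (Atf3) to 1.15 (Jund), with Junb at 0.72 ± 0.29 (unadjusted p = 0.0381), and all αD KO libraries of Fosb and Junb were above all WT libraries, as for 3.38% of genes. In lung at 12h they were -1.03 (Jun) to 1.34 (Fosb). With library 1b as the lone library labelled αD KO lung 12h, its spread taken from the WT libraries, they were -2.94 (Atf3) to 0.47 (Fosb), with an adjusted p of 1 for each and 0% of all genes called. In these last 3 comparisons 0% of all genes were called. With libraries 1a and 2 alone Fosb (1.29, adjusted p = 0.0212) and Atf3 (1.09, adjusted p = 0.0379) were called higher and Jun (-1.32, adjusted p = 0.0221) lower in lung labelled αD KO at 12h, where 30.1% of all genes were called, and both of the labelled αD KO libraries in that fit are ones out of place on the WT lung axis. The tissue difference did not pass an interaction test with genotype for any member at either time, with 0% of all genes called by edgeR (108 genes at an unadjusted p under 0.05 at 0h and 1795 at 12h) and no member called by DESeq2. Without the libraries out of place no member was called either, at 0h or at 12h (0% of all genes).

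**Figure D4:**
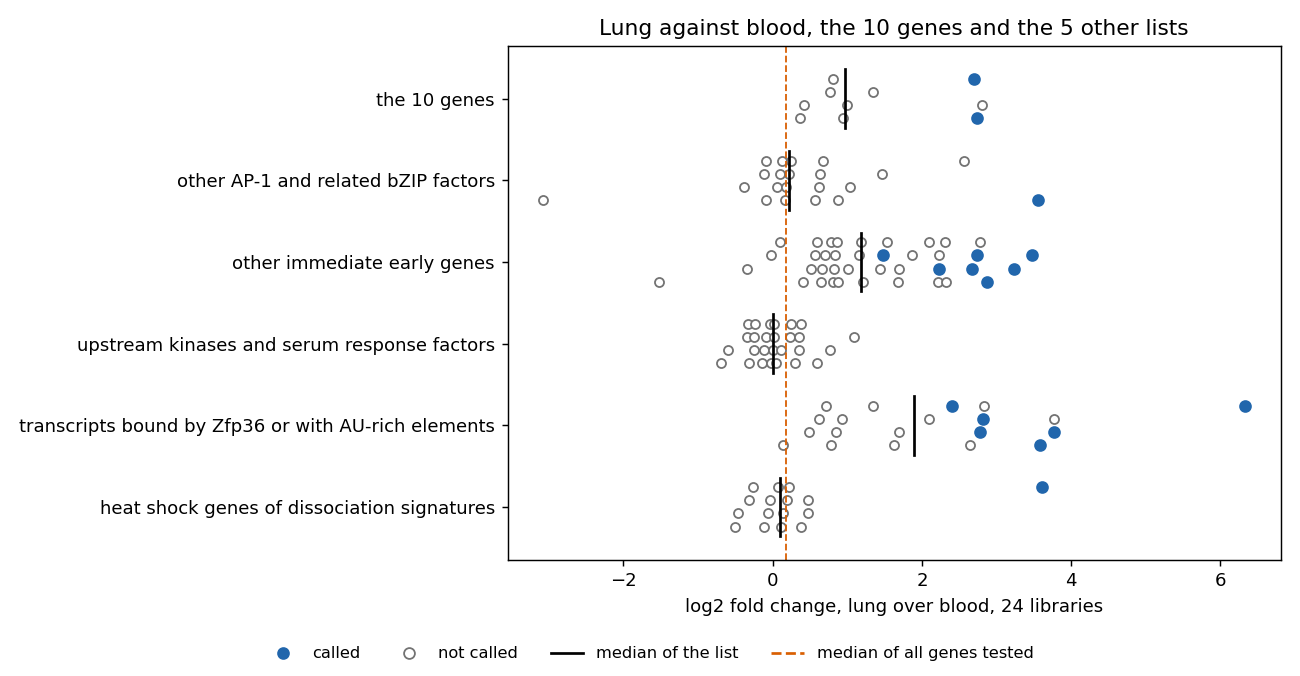
Log2 fold change of lung over blood in the 24-library model for the 10 genes and for the genes of 5 other lists, 1 point per gene, with the list medians marked. The medians are 0.97 for the 10 genes, 1.18 for other immediate early genes and 1.89 for transcripts with AU-rich elements, against 0.01 for upstream kinases.

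Other genes of the same pathways were described in 5 lists over the 24 libraries. Of 39 other immediate early genes tested, 7 were called higher in lung and none lower, and 36 had a positive fold change, with a median of 1.18. Of all 27145 genes tested 62.1% had a positive fold change, 0.81% were called higher and the median was 0.18. Egr2, a relative of Egr1, was higher by 2.67 ± 0.44 (adjusted p = 0.00184), Btg2, an antiproliferative gene, by 1.49 ± 0.30 (adjusted p = 0.0132) and Dusp5, a phosphatase that inactivates ERK, by 2.74 ± 0.56 (adjusted p = 0.0137). Egr3, Nr4a3, Dusp2 and Gadd45b were the other 4. Of 21 other AP-1 and related bZIP factors 1 was called, Maff (3.56 ± 0.68, adjusted p = 0.00812), with a list median of 0.23. Maff was at 2.55, 2.58 and 8.38 CPM in WT lung 0h and at 47.3, 0.882 and 91 CPM in WT lung 12h. Fosl1, another FOS family gene, was at 2.56 ± 0.92 (adjusted p = 0.243).

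All 20 transcripts that Zfp36 binds or that carry AU-rich elements had a positive lung over blood fold change (median 1.89), where 62.1% of all genes did, and 6 were called against 0.81% of all genes. These were Il1a, Il1b, Ccl3, Ccl4, Csf2 and Il23a. Il1b, the cytokine IL-1β, was higher by 2.41 ± 0.48 (adjusted p = 0.0116), the chemokine gene Ccl4 by 2.82 ± 0.58 (adjusted p = 0.0151) and Il23a, a subunit of IL-23, by 6.34 ± 0.60 (adjusted p = 3e-06). Ccl4 was at 140.4, 87.2 and 1037 CPM in lung labelled αD KO 0h, where library 2, the high one, is out of place on the axis. Il23a was at 0.0502 to 0.842 CPM in the blood libraries and at 6.02 to 187 CPM in the lung libraries. Of 27 upstream kinases and serum response factors none was called, with a median of 0.01. Mapkapk2, a kinase downstream of p38 that phosphorylates tristetraprolin, was at 1.09 ± 0.42 (adjusted p = 0.296), Rps6ka1 at -0.70 ± 0.21 (adjusted p = 0.124) and Mapkapk3 at -0.60 ± 0.18 (adjusted p = 0.126). Of 16 heat shock genes, which are part of published signatures of tissue dissociation, 1 was called, Hspb1 (3.61 ± 0.72, adjusted p = 0.0108), at 0 to 1.64 CPM in blood and 0.482 to 8.43 CPM in lung. The mitochondrial chaperone genes Hspe1 and Hspd1 were at -0.46 and -0.51, and the list median was 0.10. Within WT, 14 of these 16 genes were positive at 12h (median 0.58), where 51.1% of all genes were (median 0.03), and none was called. At 0h 5 of the 16 were positive in WT (median -0.16), against 42.5% of all genes (median -0.08), with none called. Medians with the αD KO label were 0.08 at 12h and -0.03 at 0h, with the libraries out of place included.

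Without the 3 libraries out of place (an alternative for these lists that was added after seeing the data), 0.277% of all genes were called higher in lung, 70.7% had a positive fold change and the median was 0.39. Of the other immediate early genes 35 of 39 were then positive with a median of 1.09, and 2 were called, Egr2 (2.49 ± 0.46, adjusted p = 0.0151) and Tnfaip3. All 20 transcripts with AU-rich elements were positive with a median of 1.79, and 3 were called, Il1a, Cxcl1 and Il23a (6.16 ± 0.61, adjusted p = 1.62e-05). Il1b (adjusted p = 0.0808) and Ccl4 (adjusted p = 0.0764) were not called, nor were Maff (adjusted p = 0.0627), Hspb1 (adjusted p = 0.122) or any kinase gene of the list.

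How the 10 genes varied is a description over 24 libraries that share tissue, time and depth. Pearson's r of log2 CPM with the mean of the members, each included in it, was 0.367 for Jun. For the others it was 0.767 (Fosl2) to 0.923 (Junb). Fos was most like Fosb (Pearson's r of log2 CPM 0.949), Atf3 like Fos (0.926), Junb like Fos (0.901), Fosl2 and Zfp36 like each other (0.89), Ier2 like Junb (0.877), Jund like Ier2 (0.843) and Egr1 like Jund (0.768). Jun was least like the others, with its highest r of 0.56 to Egr1. Outside the 10, the genes whose log2 CPM was most like the mean of the members were Rasip1 and Btg2 (0.961), Xylt1 (0.936), Tnfaip2 (0.927), Ciart (0.926), Snx20 (0.921), Gm37352 (0.917), Egr2 (0.914), Gm23722 (0.913) and Arhgap26 (0.91). Btg2, for example, averaged 1551 CPM in WT blood 0h, 524 CPM in WT blood 12h, 2622 CPM in WT lung 0h and 2287 CPM in WT lung 12h.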

How the data were processed

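RNA was from the sorted neutrophils described above. SMART-Seq v4 cDNA and Nextera XT libraries were sequenced on 1 lane, and per the submitters' processing notes reads were trimmed with Trimmomatic 0.36 and mapped with STAR 2.5.2b (GRCm38/mm10). The authors counted unique reads within exons per gene and deposited the raw counts, unnormalized, for 49315 genes. The strand of counting is not given in the sources used here. Groups follow the labels, and the 10 genes and all lists were chosen with earlier results of these data known.

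From the deposited counts, CPM were computed with TMM factors, and log2 CPM with a prior count of 1. Tests were edgeR 4.0.16 quasi-likelihood F tests (R 4.3.3, limma 3.58.1) after filterByExpr, on the libraries of the groups compared, and were tested on simulated data. Alternatives were DESeq2 1.42.0, RLE factors, no filter, at least 10 counts in every library, all 8 groups in 1 fit, the files of sample 1 summed, libraries 1a and 2 alone, libraries 1b alone, the 3 libraries out of place left out, each library left out in turn and a replicate block. The block was the library number in comparisons of 2 groups. In the 24-library comparison and the interactions it was the same-numbered lung and blood pair of a genotype and time. In 10 of 12 comparisons of 2 groups, libraries with the same number deviated together (correlation of deviations from group means over 0.1 for every number). The labels number the samples but state no shared animal or batch, and the split of sample 1 into 1a and 1b is not in the labels. The exceptions were library 1a in αD KO lung against blood at 0h (0.0885) and in αD KO against WT lung at 0h (1e-04). The chi-square between libraries 1a and 1b, over its degrees of freedom, was 89.4 to 565 (genes with at least 10 counts), so the files are not copies of each other. This does not show that they are separate animals, and n = 3 libraries stands for 2 samples. Named genes were the 10, Itgad, the 3 genes of smallest adjusted p in each list in the 24-library comparison, and the 10 genes most correlated with the mean of the members. A gene that this rule names is not reported here. List genes or markers named beyond these were all the called ones, or examples chosen after their values were seen. Depth limits Fosb most, which had 8 to 26 counts per library in blood 12h.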

Additional observations from a re-analysis of the deposited data

How the results depend on the processing

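Of the 170 pairs of a member and a comparison, 54 were in the 24-library comparison or had an unadjusted p under 0.05. Of their 1006 values under an alternative, 821 kept their direction and side of the threshold, 106 passed it newly, 76 no longer passed and 3 reversed. The 3 were lung against blood with libraries 1b alone, where Jun was at -0.86, Jund at -0.14 and Ier2 at -0.18. The other 116 pairs, none of them called, had 1872 alternative values, of which 205, from 61 pairs, had the opposite sign and 19 passed the test (1 of them with the opposite sign). Of the 12 calls none reversed, and 76 of their 202 alternative values no longer passed. The number of members called moved by over 1.5 times as follows, and the cause was not tested except where fewer libraries entered. Beside each count stands the share of all genes called in the same direction (in either direction for lung over time and for αD KO against WT). DESeq2 called 5 members in the 24-library comparison against 2 (3.23% of all genes), 1 in WT lung against blood 0h against 0 (0.187%), 8 in WT (5.67%) and 4 with the αD KO label (5.02%) at 12h against 1 each (no adjusted p for 1 member of the latter), 7 in WT blood over time against 4 (10.7%), and 4 in WT (0.443%) and 3 of 9 tested with the αD KO label (1.37%) in tissue by time against 0. Without a filter the counts were 6 in WT 12h (1.31%), 4 in αD KO 12h (2.18%), 2 in WT blood (0.88%) and 1 in tissue by time, αD KO (0.0987%), and with at least 10 counts in every library 5 over 24 libraries (1.69%), 0 in WT 12h (0.00987%) and 0 in αD KO 12h (0.01%), Fosb being left untested in all 3 by its 8 to 9 counts in a blood library. With the files of sample 1 summed they were 1 over 24 libraries (0.701%), 4 in WT 12h (2.8%), 4 in αD KO 12h (4.87%), 7 in WT blood (6.17%), 0 in WT lung (12.3%) and 1 in αD KO blood (1.74%). With all 8 groups in 1 fit they were 0 in WT lung (1.65%) and 0 in αD KO blood (0.192%). With libraries 1a and 2 alone they were 10 in WT 12h (15.6%), 9 in αD KO 12h (20.4%), 8 in WT blood (12.1%), 4 in WT lung (37.2%), 3 in αD KO against WT, lung 12h (30.1%) and 10 in tissue by time, WT (4.29%). Without the libraries out of place they were 1 over 24 libraries (0.277%), 0 in αD KO 12h (0%) and 1 in αD KO lung over time (1.41%), Atf3, which was lower at 12h with 1 library there and the libraries chosen by their position between the times, so that this is no test. With the replicate block they were 3 in WT 12h (0.471%), 5 in αD KO blood (6.08%) and 1 in tissue by time, WT (0.034%), and beyond the calls given beside the results the block changed no other call of the 10 genes. Leaving out 1 library at a time gave 0 to 3 members over 24 libraries (0.47% to 1.32% of all genes), 0 to 9 in WT 12h (0% to 10.6%), 0 to 5 in αD KO 12h (0% to 6.36%), 0 to 7 in WT blood (0% to 9.07%), 0 to 3 in WT lung (0% to 25.3%), 0 to 2 in αD KO blood (0.315% to 4.32%) and 0 to 1 in tissue by time, WT (0% to 0.378%). The permutation test had 7 genes with p under 0.05 and 1 at 0h alone, and 5 without the libraries out of place (3 at 12h alone, 1 at 0h alone).

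Counts of all genes called moved more. With the range over the other alternatives given first and that over leaving out 1 library in parentheses, the 24-library comparison called 247 genes, and 83 to 825 (153 to 411). At 12h lung against blood called 6 in WT, and 1 to 3779 (0 to 2916), and 8 with the αD KO label, and 0 to 4881 (0 to 1691). Over time WT blood called 1975, and 944 to 3201 (2 without library 2 of WT blood 12h, to 2804), WT lung 1340, and 447 to 5299 (0 without library 1a of WT lung 0h, to 3941), αD KO blood 1238, and 64 to 2199 (74 to 1414), and αD KO lung 0, and 0 to 326 (0). At 0h lung against blood called 0 in both genotypes, and up to 44 (0) in WT and 114 (16) with the αD KO label. αD KO against WT called 2 in blood 0h, and 0 to 5 (0 to 1), and 0 in lung 0h, blood 12h and lung 12h, and up to 7 (0), 80 (0) and 4686 (209). The interactions called 0, and up to 1167 (176) for tissue by time in WT, 245 (6) with the αD KO label and 3670 (258) for tissue by genotype at 12h. RLE factors moved the median of all genes by 0.17 and 0.21 in tissue by time (WT, αD KO) and by 0.10 in tissue by genotype at 12h.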
